A study of Homo sapiens with 6 samples.

Results

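BCYRN1, also called BC200 RNA, was examined in RT-stop libraries of U2OS cells, a human osteosarcoma cell line. It was 1 of 15739 transcripts with RT stops in the files and was found by its RefSeq transcript. It was selected on measured values, because starved cells had a higher share of their RT stops on it than unstressed cells. That difference is therefore given as a description, with no test. In RT-stop profiling, poly(A)-selected RNA is cut into short fragments and reverse transcribed, and each cDNA end marks a nucleotide that reverse transcriptase (RT) did not copy. Dimethyl sulfate (DMS) methylates accessible A and C at positions that block RT, so that stops at these bases report on structure. The study itself read stops at G. It states that DMS also methylates the N7 of G outside quadruplexes, stacks of planar squares of G, and that this reduces RT stalling. There were 6 libraries and 1 library per condition. By the labels, RNA without DMS was reverse transcribed in 150 mM Na+ or 150 mM K+. The study's results also name Na+, whereas its methods name Li+ in its place. Purified RNA was refolded and treated with DMS in 150 mM K+ or 150 mM Li+. Cells in regular medium (unstressed) or in HBSS for 2 h (starved) received 8% DMS for 5 min. The 4 DMS libraries were all reverse transcribed in 150 mM K+.

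BCYRN1 is a short cytoplasmic noncoding RNA transcribed by RNA polymerase III. It arose from an Alu element and is known as a neuronal RNA that represses translation and is also found in tumor cells. Its Alu-like domain binds the signal recognition particle proteins SRP9 and SRP14, its A-rich domain binds poly(A)-binding protein, and its last domain is rich in C. It has no added poly(A) tail in the usual sense, and its A-rich stretch lies inside the RNA.

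The gene lies on the plus strand of chromosome 2 at chr2:47562454-47562653 (GRCh37) and is annotated as a single-exon scRNA of 200 nt. The locus is inside an intron of EPCAM-DT, a long noncoding RNA on the minus strand, and none of the exons of EPCAM-DT overlap it. The gene EPCAM starts downstream, at position 47572297.

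The A-rich part was the best-scoring run of A in the sequence, with 1 added for each A and 2 taken off for each other base. It covered nucleotides 123 to 161 and held 33 A in 39 nt. Nucleotides 1 to 122 before it are called the Alu-like part. Nucleotides 162 to 200 after it are called the C-rich part, which held 20 C in 39 nt. The base in the files equalled the reference base at every listed nucleotide of BCYRN1, which were 134 to 154 nucleotides per library. The windows below, taken from GRCh37 and written as RNA, are printed because they carry the positions with the most stops. Capitals mark C37 and C39 in the first, and U159, A160 and A161, the end of the A-rich part, in the second.

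Nucleotides 31 to 50: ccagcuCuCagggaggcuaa

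Nucleotides 149 to 168: aaaaaaaaaaUAAgcguaac

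In total 33507714 stops were listed in the library labelled Na+ and 35371061 in that labelled K+, both without DMS. Listed stops amounted to 21480565 in vitro in K+, 31174408 in vitro in Li+, 12999691 in unstressed cells and 24014417 in starved cells. Only nucleotides with at least 3 stops were listed, and the others were counted as 0. The labels and the file names of the 2 libraries without DMS contradict each other about the cation, so these libraries are named by their labels throughout. Of mesenchymal markers, 5 of 6 were listed, and VIM was the most abundant with 45404 to 125127 stops per library. COL1A2 had no listed stop. Epithelial markers were listed for 2 of 3 genes, with at most 67 stops (EPCAM). Neuronal markers were listed for 4 of 5 genes. NEFL, which encodes a neurofilament protein, had 208 to 1171 stops and the others at most 88.

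In every library BCYRN1 was among the most densely covered of the transcripts that could be matched to a reference sequence. It took its highest share of the stops in starved cells. Without DMS it had 46399 stops in the library labelled Na+, which is 0.138% of all listed stops (95% Clopper-Pearson interval 0.137 to 0.140%). It had 50762 stops in the library labelled K+, which is 0.144% (0.142 to 0.145%). In vitro it had 22807 stops in K+, or 0.106% (0.105 to 0.108%), and 30867 stops in Li+, or 0.0990% (0.0979 to 0.100%). Unstressed cells gave 12919 stops, or 0.0994% (0.0977 to 0.101%). Starved cells gave 87010 stops, or 0.362% (0.360 to 0.365%). The share was thus lowest in vitro in Li+ and in unstressed cells, whose intervals overlap, and higher in K+ in vitro, without DMS and in starved cells, in this order. With estimated counts below the listing limit included in the totals, unstressed cells alone were the lowest and K+ was at 1.01-fold Li+ in vitro. All intervals cover counting error only, and not variation between cultures, which 1 library per condition cannot show.

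**Figure D1:**
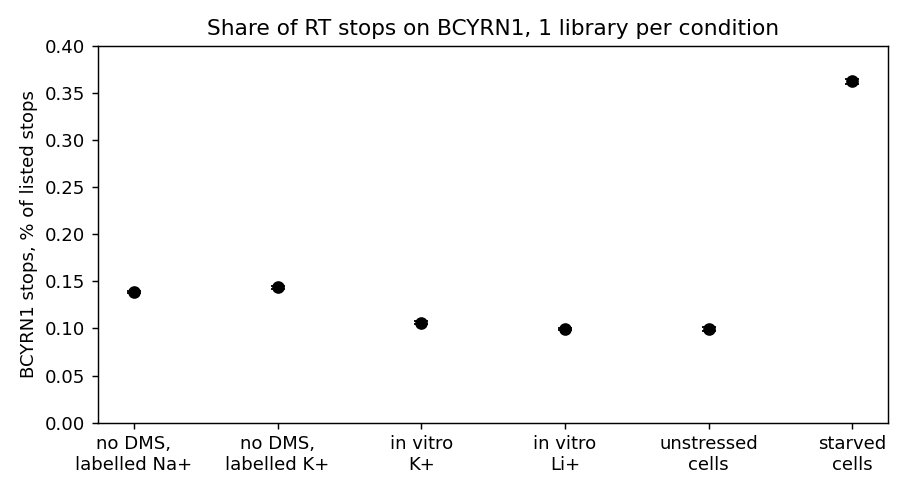
RT stops on BCYRN1 as percent of all listed stops (y axis) in each of the 6 libraries (x axis), with 95% Clopper-Pearson intervals that are smaller than most of the points. The starved library lies at 0.362% and the other 5 between 0.0990% and 0.144%.

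Counted per nucleotide of length, BCYRN1 ranked 2 of 6754 transcripts without DMS, 2 of 6750 and 2 of 6752 in K+ and Li+ in vitro, 7 of 6738 in unstressed cells and 1 of 6737 in starved cells. Only transcripts that could be matched to a reference sequence were ranked, out of 12630 to 13839 listed per library. Estimated stops under the listing limit were included. BCYRN1 had 64.7 stops per nucleotide in unstressed cells and 435 in starved cells, where the median matched transcripts had 0.444 and 0.548. The 6 nucleotides with the most stops of the whole starved library were all in BCYRN1.

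The share of stops on BCYRN1 in starved cells was 3.65-fold that in unstressed cells (conditional binomial interval 3.58 to 3.71). This is the contrast on which the RNA was chosen. Of 7154 transcripts with at least 50 stops in both libraries, 1342 (18.8%) had a share at least 2-fold higher in starved cells. The median transcript had a fold of 0.800, the central 90% ran from 0.112 to 3.68, and 369 transcripts had a fold at least as high as BCYRN1. Its nearest neighbours in this order were GCA (3.646) below and PBDC1 (3.646) above. In bulk RNA, more cells with the transcript and more of it per cell cannot be told apart, and neither can more RNA and more stops per RNA. The fold depended on what it was set against. At U and G it was 1.62 as a share of the U and G stops of the library. At A and C it was 4.30 as a share of the A and C stops. The DMS products of U and G do not block RT as those of A and C do. By the study's account, however, stops at G in quadruplexes also depend on DMS. As a share of all listed stops, those at U and G were 3.03-fold higher. Over all transcripts, stops at A and C made up 88.4% in unstressed and 78.2% in starved cells, and stops at G 9.02% and 16.2%. With only noncoding transcripts as the denominator the fold was 1.66. Stops on all noncoding transcripts were 2.46% of the starved and 1.11% of the unstressed library, and the median fold of 214 noncoding transcripts was 1.61, with 28 at least as high as BCYRN1. Transcripts with a last listed position under 500 also had a higher median fold, 1.74 over 118 transcripts, of which 11 were at least as high as BCYRN1. Divided by that median, its fold was 2.09. The part of these shifts in the fold of BCYRN1 was not tested.

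**Figure D2:**
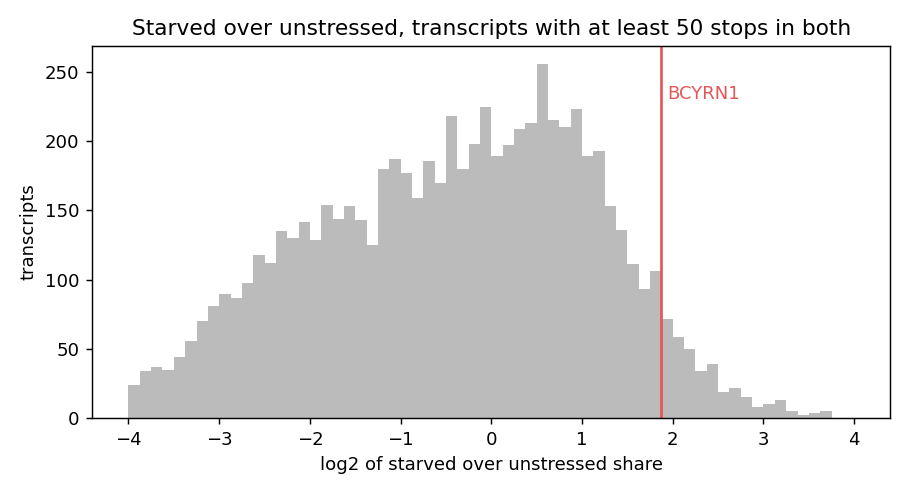
Histogram of the log2 ratio of starved to unstressed share (x axis) over transcripts with at least 50 stops in both libraries (y axis, number of transcripts). The 7071 transcripts with ratios between -4 and 4 are drawn, and the red line marks BCYRN1 at 1.87, inside the upper tail of the distribution.

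The share of BCYRN1 differed by less than 2-fold between the libraries other than that of starved cells. In vitro, the share in K+ was 1.07-fold that in Li+ (interval 1.05 to 1.09). Among 8606 transcripts 0 (0.0%) had a share at least 2-fold higher in K+, the median fold was 0.899, and 506 transcripts were at least as high as BCYRN1. Without DMS, the share in the library labelled K+ was 1.04-fold that in the library labelled Na+ (1.02 to 1.05). There 5 of 9249 transcripts (0.0541%) were at least 2-fold higher, and 3816 were at least as high as BCYRN1. Unstressed cells gave 0.936-fold the share of the in vitro K+ library (0.916 to 0.956), and this library gave 0.740-fold the share of the library labelled K+ without DMS (0.728 to 0.751). In the latter pair BCYRN1 lay low, since 8025 of 8598 transcripts had a fold at least as high and their median was 0.954. Starved cells stood 3.41-fold above the in vitro K+ library (3.36 to 3.46), where the median transcript was at 0.755.

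Among the 5 transcripts whose shares ran most like those of BCYRN1 over the 6 libraries were KGD4, RPL17, ZBTB8OS and MIR4458HG. They were chosen among 7025 transcripts with at least 50 stops in every library, by the mean absolute difference of log2 shares that had been centred on their mean over the 6 libraries. This difference was 0.061 for KGD4, a mitochondrial protein gene, and 0.063 for RPL17, a ribosomal protein gene, and 0.101 for MIR4458HG, the host gene of a microRNA. RPL17 had 2783 stops in the unstressed library, against 22528 in the library of starved cells.

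Stops were not spread evenly along BCYRN1 but lay in 3 clusters, 1 on each side of an empty stretch in the Alu-like part and 1 over the A-rich part and the start of the C-rich part. At 131 of the 200 nucleotides stops were listed in all 6 libraries, and at 43 nucleotides they were listed in none. Nucleotides 61 to 73 in the Alu-like part had no listed stop in any library, although both flanks had stops. Nucleotides 182 to 200, which hold the whole C tract, were also empty throughout. A cDNA was kept if RT had added 20 to 45 nt, so a stop this close to the 3′ end would need a template that extends beyond the RNA. A181, which is also within 20 nt of that end, had 3 listed stops in starved cells and none in the other libraries. Whether the limit left nucleotides 182 to 200 empty was not tested. At the 5′ end, nucleotides 1 to 5 and 8 to 10 were empty in all libraries.

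**Figure D3:**
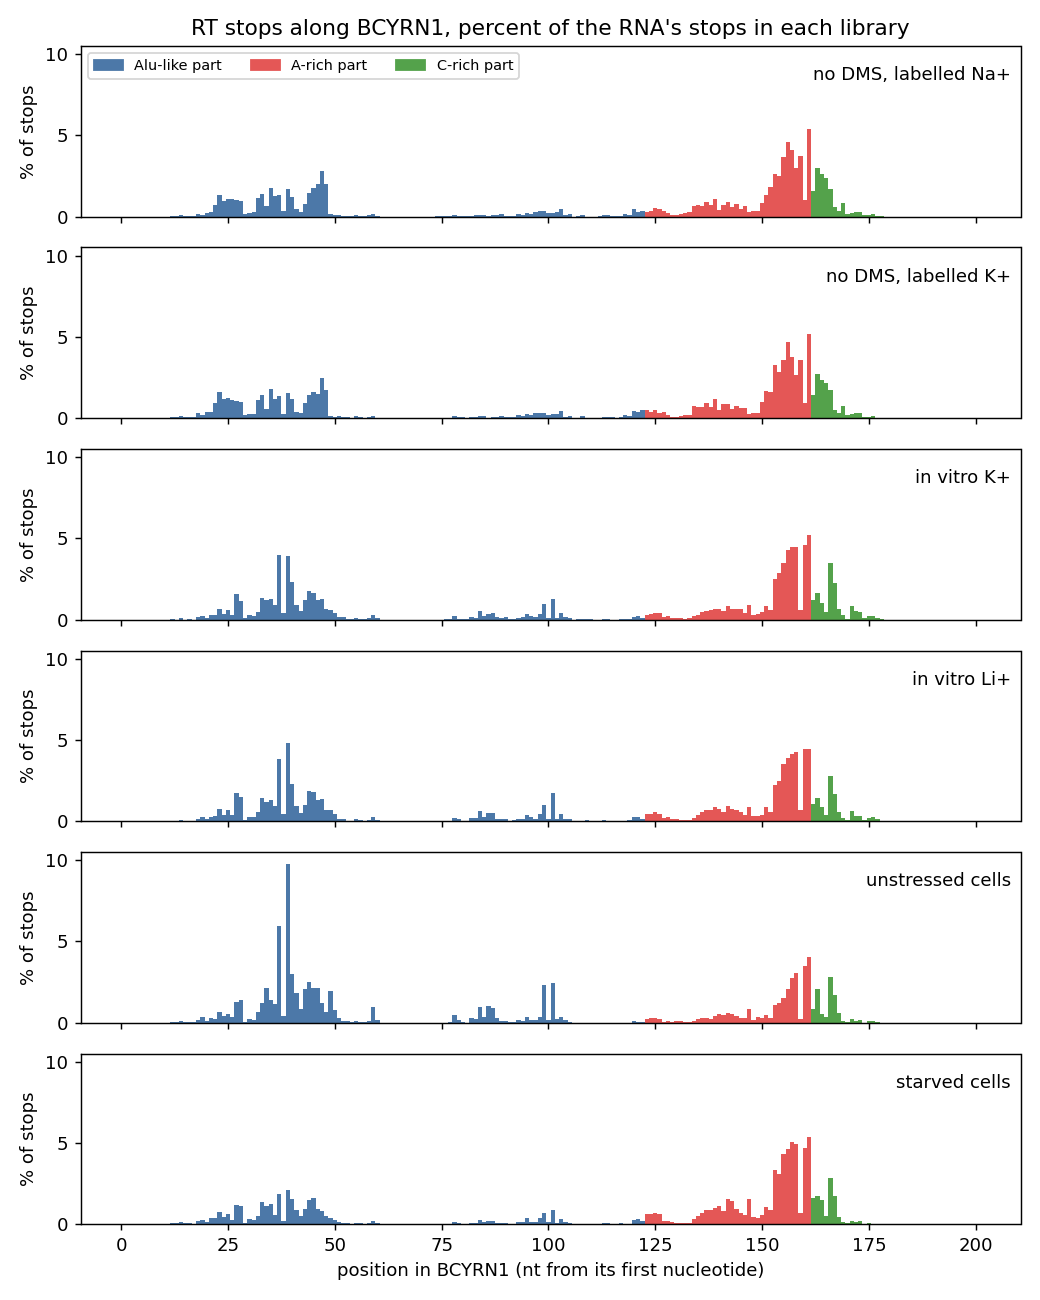
RT stops at each nucleotide of BCYRN1 (x axis, position in nt) as percent of all its stops in that library (y axis), in 1 panel for each of the 6 libraries and colored by part of the RNA. The peak of C39 reaches 9.75% in unstressed cells and 2.12% in starved cells, where the A-rich part (red) holds most of the stops.

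Without DMS the profile was led by the end of the A-rich part. A161, its last nucleotide, had 2496 stops in the library labelled Na+ and 2636 in the library labelled K+, followed by A156 and A157 in both. Both profiles were nearly the same, with a Pearson correlation over the 200 positions of 0.993, and 5.30% of the stops would have to move to make them equal. Positions of 1 RNA share a library and are not independent, so correlations are descriptions. U159 was a prominent stop only without DMS, with 3.72% and 3.60% of the stops in the libraries labelled Na+ and K+ against 0.209% to 0.709% in the DMS libraries.

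Stops at G were compared between the libraries without DMS. A G-quadruplex is a stack of planar squares of G that K+ stabilizes and that stops RT at its 3′ end. BCYRN1 had 28 G with at least 20 stops in both libraries without DMS. After scaling each count to the mean of the RNA, the library labelled Na+ was at 0.653 to 1.92 times the library labelled K+ at these G, with a median of 0.984, and none of the 28 differed by 2-fold. Of 8 more G that were listed in both with fewer stops, 3 differed by 2-fold, and these were G12, G15 and G79, at 0.458 to 0.476 times, with 10 to 18 stops in the library labelled Na+. The other 103 nucleotides ranged from 0.527 to 1.43. Exchanging the labels inverts these ratios. No nucleotide at G reached 10 times the mean of the RNA in any library, and the highest was G164 with 5.21 times in the library labelled Na+. A quadruplex motif of 4 runs, each with 3 or more G and separated by no more than 7 nt, was not found in the sequence. When 2 or more G made a run and 9 nt could separate them, there were 4 starting points, the first spanning nucleotides 1 to 15 and the last 45 to 61.

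With DMS in vitro, more of the stops lay at A, while the share at C was little higher. Stops at A and C of BCYRN1 were 82.6% in K+ and 82.4% in Li+, against 71.5% and 72.4% in the libraries labelled Na+ and K+ without DMS. Stops at A alone were 63.5% and 62.6%, against 52.9% and 53.7%, and those at C alone 19.1% and 19.8%, against 18.7% and 18.7%. Stops at U were 4.67% and 4.99%, against 14.1% and 13.7%. The share of each nucleotide was set against its mean share in both libraries without DMS, for nucleotides with at least 20 stops in each of these 2. None of the 16 to 19 U that passed this minimum was at least 2-fold higher in any of the 4 DMS libraries. U81, which did not pass with 4 and 8 stops, was at 3.24-fold in K+ and 2.92-fold in Li+. At G, some nucleotides were at least 2-fold higher, 3 of 28 in K+, 2 of 28 in Li+, 7 of 26 in unstressed cells, up to 4.23-fold at G41, and 1 of 28 in starved cells. Of 53 A, 11 were at least 2-fold higher and 6 at least 2-fold lower in K+, with a median ratio of 1.05. In Li+ 10 were higher and 5 lower by this measure, with a median of 1.06. In unstressed cells 12 were higher and 17 lower (median 0.752), and in starved cells 10 and 5 (1.20). Of 31 C, 7 were at least 2-fold higher and 8 at least 2-fold lower both in K+ (median 0.708) and in Li+ (0.895). Among the nucleotides that passed, A101 had the highest ratio, 5.93-fold in K+ and 8.02-fold in Li+, and C87 followed at 5.37-fold and 7.40-fold. A86 was higher still, at 14.1-fold and 19.4-fold, but rests on 13 and 12 stops without DMS, against 83 and 155 in K+ and Li+. These 3 nucleotides lie in the Alu-like part, and A160 at the end of the A-rich part was at 4.73-fold and 4.57-fold. Profiles in K+ and Li+ had a correlation of 0.990. The C-rich part had a slightly larger share of the library in K+ than in Li+, at 1.33-fold (1.27 to 1.40), the A-rich part was at 1.10-fold (1.07 to 1.13) and the Alu-like part at 0.981-fold (0.955 to 1.01).

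In unstressed cells the 2 positions with the most stops lay in the Alu-like part, followed by A161 with 526 stops. C39 had 1260 stops (9.75% of all stops on the RNA) and C37 had 770 (5.96%), and both exceeded 10 times the mean of the RNA. C37 and C39 together made up 15.7% (15.1 to 16.4%) of the stops in unstressed cells. They made up 7.86% and 8.63% in K+ and Li+ in vitro, and 3.03% and 2.91% in the libraries labelled Na+ and K+ without DMS. In starved cells they made up 4.01% (3.88 to 4.14%), nearer to the libraries without DMS. A49 was 13.9-fold above the libraries without DMS in unstressed cells and 2.60-fold in starved cells. C87 was 12.6-fold above them in unstressed and 2.51-fold in starved cells, and A101 was at 11.3-fold and 4.10-fold. At these 5 nucleotides of the Alu-like part, named for their high values in unstressed cells, the starved library was thus closer to the libraries without DMS than the unstressed library was. Their counts in unstressed cells were 117 stops at C87, 252 at A49 and 312 at A101. Below the minimum, A86 was at 40.2-fold in unstressed cells (134 stops) and at 8.45-fold in starved cells (190 stops). Among nucleotides that passed the minimum, those with the highest ratios in starved cells were A147, at 5.89-fold, and A160, at 4.84-fold, both in the A-rich part. In unstressed cells A147 was at 3.20-fold and A160 at 3.55-fold.

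The 3 parts shared the stops differently in starved than in unstressed cells. The Alu-like part held 62.3% of the BCYRN1 stops in unstressed cells, 32.9% in starved cells, 41.0% and 44.8% in K+ and Li+ in vitro, and 38.0% and 38.4% in the libraries labelled Na+ and K+ without DMS. The A-rich part held 27.9% in unstressed cells and 55.9% in starved cells, against 45.4% and 44.2% in vitro and 47.7% and 48.3% without DMS. The C-rich part held 9.80% in unstressed cells and 11.2% in starved cells, and 11.0% to 14.4% in the other libraries. Its difference between the cells depended on the processing, at 1.40 percentage points as given, 0.583 without the position with the most stops, and 4.48 with 3 taken off for each other base in the A-rich run. In the A-rich part unstressed cells were thus the lowest and starved cells the highest of the 6 libraries. The difference between them was 27.9 percentage points (27.1 to 28.8), which exceeds the counting error.

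**Figure D4:**
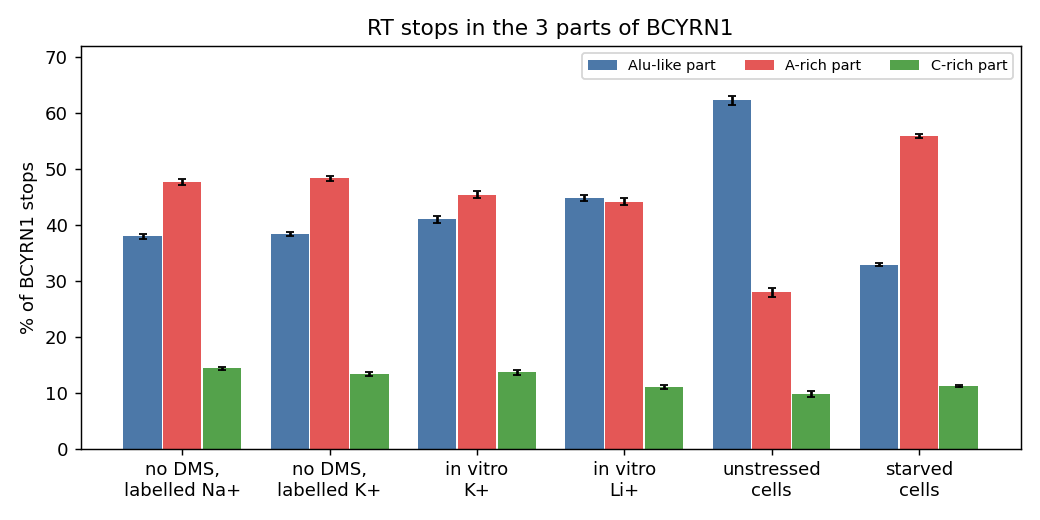
Percent of the BCYRN1 stops (y axis, from 0) in the Alu-like, A-rich and C-rich parts in each library (x axis), with 95% Clopper-Pearson intervals as bars. The A-rich part (red) holds 27.9% in unstressed and 55.9% in starved cells, and 44.2% to 48.3% in the 4 libraries not made from DMS-treated cells.

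As a share of the library, the Alu-like part was 1.93-fold higher in starved than in unstressed cells (1.88 to 1.98). The A-rich part was 7.29-fold higher (7.05 to 7.55) and the C-rich part 4.17-fold (3.93 to 4.42). The Alu-like part had the lowest fold also by base. Counting A alone, the folds were 1.90, 7.26 and 3.64 in the Alu-like, A-rich and C-rich parts, and counting U and G alone they were 2.38, 8.76 and 7.30, all as shares of all listed stops. At G alone the A-rich part was at 7.16 (5.52 to 9.45) and the C-rich part at 8.09 (6.96 to 9.46), so that the order of these parts turned and their intervals overlapped. Stops per A were 0.901 times as many in the A-rich as in the Alu-like part in unstressed cells and 3.45 times as many in starved cells. This ratio was 2.22 and 1.93 in K+ and Li+ in vitro, and 3.63 and 3.59 in the libraries labelled Na+ and K+ without DMS.

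By nucleotide, all 31 positions of the A-rich part with at least 20 stops in both libraries had a share at least 4.09-fold higher in starved cells (A149). Their median was 8.86-fold and the highest was A138 with 15.8-fold, from 26 stops in unstressed and 758 in starved cells. The 52 positions of the Alu-like part ran from 0.638-fold (C82) to 5.85-fold (C30) with a median of 2.05-fold. C39 was at 0.794-fold and A49 at 0.681-fold. The 9 positions of the C-rich part ran from 2.72-fold (C168) to 9.72-fold (G164), with a median of 3.70-fold. The minimum leaves out nucleotides that were low in unstressed cells. Over all nucleotides listed in both libraries the 80 of the Alu-like part ran from 0.638-fold to 30.4-fold, with a median of 2.91-fold. The highest was A121, next to the A-rich part, with 5 stops in unstressed and 281 in starved cells. The 39 of the A-rich part then ran from 3.25-fold to 15.8-fold with a median of 8.62-fold, inside the range of the Alu-like part. The 15 of the C-rich part ran from 1.08-fold to 9.72-fold with a median of 3.70-fold. Their lowest was A177, with 3 stops in unstressed and 6 in starved cells.

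**Figure D5:**
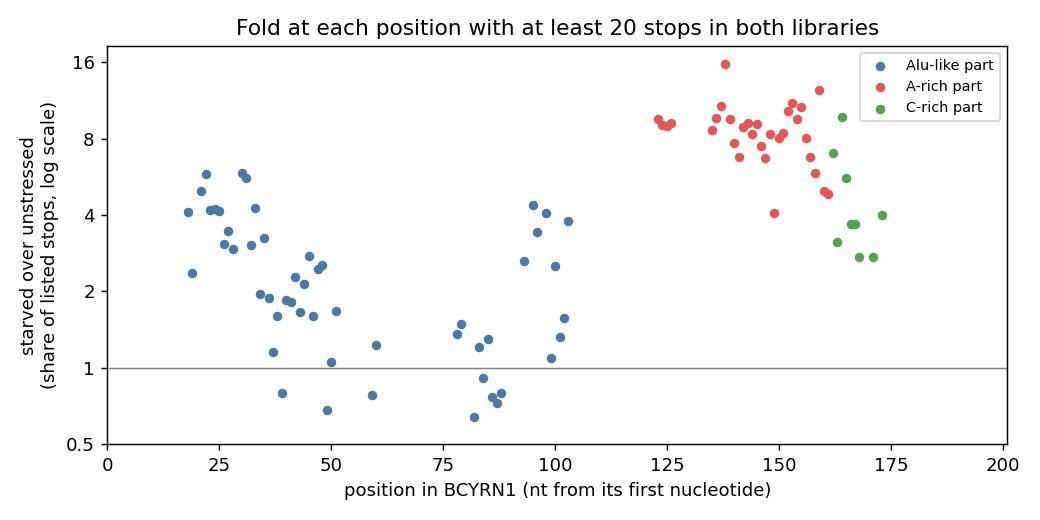
Starved over unstressed share of listed stops (y axis, log scale) at each nucleotide of BCYRN1 with at least 20 stops in both libraries (x axis, position in nt), with points colored by part. The A-rich points (red) lie between 4.09 and 15.8, and the Alu-like points (blue) between 0.638 and 5.85, a range that is wider without the minimum.

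The change of the profile exceeded that between the other pairs of matched libraries. Between unstressed and starved cells the profiles had a correlation of 0.666, and 32.3% of the stops would have to move to make them equal, against 5.30% without DMS and 6.42% in vitro. By this correlation and by the stops to move, the starved profile was nearest to that in vitro in K+, with 0.955 and 13.3%. By rank it was nearest to Li+, with a Spearman correlation of 0.972 against 0.964 with K+. The unstressed profile was nearest to that in vitro in Li+, with a correlation of 0.865 and 21.2% of the stops to move. With the in vitro K+ library it had 0.822 and 23.3%. Its correlation was 0.547 and 0.529 with the libraries labelled Na+ and K+, whereas the starved profile had 0.839 and 0.841 with these 2. At A and C together BCYRN1 had 79.0% of its stops in unstressed and 82.6% in starved cells. Over all transcripts this share was 88.4% in unstressed and 78.2% in starved cells, so that BCYRN1 differed in the opposite direction. Its share at A was 52.7% in unstressed and 68.8% in starved cells, and its share at C was 26.3% and 13.8%. Over all transcripts the share at A was 63.6% in both libraries, and the share at C was 24.8% in unstressed and 14.6% in starved cells. The share at C was thus lower in starved cells both on BCYRN1 and over all transcripts, while the share at A was higher on BCYRN1 and equal over all transcripts.

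The Alu ancestry raises the question of which reads could be placed. By the study's methods, only reads that mapped uniquely and without mismatch to an hg19 transcriptome were kept, and the files name RefSeq transcripts. The uniqueness of BCYRN1 was therefore counted against GENCODE transcripts for the 25 nt that follow each position, which a read ending there would hold. In the Alu-like part 76 of 122 such windows were found in no other gene, and in the A-rich part 39 of 39. In the C-rich part all 14 windows of full length were unique. For positions 1 to 11 none was unique, and up to 1135 other genes shared a window. Of these positions, 3 had any listed stop, with at most 6 stops. A read from there would need 28 to 38 nt to be unique. Positions 61 to 73 were empty, and 5 of their 13 windows were unique at 25 nt, 23 to 30 nt being enough for a unique read. For positions 12 to 60, 20 to 31 nt were enough. In the genome the windows of the Alu-like part had a median of 54 copies and up to 79012, against 2 to 6 in the A-rich part. Those of the C-rich part had 1 to 2 copies, with a median of 2. All these counts include the gene itself. Of the stops in the Alu-like part, 89.0% to 91.7% lay at positions whose window was unique. For positions 74 to 105 this share was lower, 60.97% to 68.14%, with 18 of 32 windows unique. Among these positions, the windows of A86 and C87 were shared with 1 other gene, and reads from there would need 35 and 34 nt to be unique, whereas that of A101 was unique. With only unique windows of the whole RNA counted, the starved fold was 3.78.

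A list of 11 other noncoding RNAs held transcripts of RNA polymerase III and, of other size and kind, long nuclear RNAs and snoRNA host genes. Of these, 7 were listed. RN7SL1 and RN7SL2, the RNAs of the signal recognition particle and the closest relatives of Alu elements, had no listed stops, nor had RN7SK, an RNA polymerase III transcript that holds back P-TEFb, or TERC, the telomerase RNA. Only uniquely mapped reads of poly(A)-selected RNA were kept, so these 4 RNAs cannot be called absent from the cells. Of the 7 that were listed, 5 had a share at least 2-fold higher in starved cells, beside 18.8% of all transcripts and 38.8% of noncoding transcripts. None was at least 2-fold lower. Their median fold was 2.68, beside 0.800 for all transcripts. MALAT1, a nuclear RNA, was at 3.63, with 92291 stops in the starved library and 13768 in the unstressed library. NEAT1, the scaffold of paraspeckles, was at 2.43, SNHG1 and GAS5, hosts of snoRNAs, at 1.76 and 2.68. RMRP, an RNA polymerase III transcript of RNase MRP, was the lowest at 0.900, with 83 and 138 stops. RPPH1, the RNA polymerase III transcript of RNase P, was at 2.81 with 60 and 312 stops and was named after its value was seen. SNHG5 was the highest at 4.03.

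Of 15 genes for proteins that bind BC200 RNA or act with it in translation, all were listed, with 4 at least 2-fold higher and 3 at least 2-fold lower in starved cells. Over all transcripts 18.8% were at least 2-fold higher and 36.2% at least 2-fold lower. Their median fold was 0.976. Among those with the most stops were HNRNPA2B1, which encodes an hnRNP of RNA transport (0.840), NCL, which encodes nucleolin (0.494), and PABPC1, which encodes the poly(A)-binding protein (0.857). The lowest was EIF4G1, the scaffold of the cap-binding complex, at 0.0642, and the highest was SSB, which encodes the La protein that binds the ends of RNA polymerase III transcripts, at 2.79. SRP9 and SRP14, which encode the Alu-binding proteins and were named after their values were seen, were at 2.08 and 1.65.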

How the data were processed

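The authors selected poly(A) RNA of U2OS cells, cut it to 60 to 80 nt, removed duplicate reads with SAMtools and mapped the trimmed reads with Bowtie to an hg19 transcriptome, uniquely and without mismatch, with transcripts named by RefSeq accession in the files. Tool versions are not given in the sources used here. They deposited RT stop counts per nucleotide with at least 3 stops, and the ratio of each count to the mean of the same base in the transcript. This deposited ratio served to check the base means and to estimate totals with lower counts.

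BCYRN1 and the gene lists were chosen with earlier results of these data known. Named were BCYRN1, its 3 positions with the most stops per library, the 5 transcripts most like it, and the list genes with the most stops, at most 4 a list. Other positions, the ends of a list's range and the neighbours of the fold were named after their values were seen. Some items that these rules would name are not reported here. Shares were divided by all listed stops. With 1 library per condition no test was made. Intervals are Clopper-Pearson, conditional binomial for folds, and normal for differences of shares. The RT primer's 6 random nucleotides allow 4096 barcodes, and 4 BCYRN1 positions had more stops than this in starved cells and 0 in the other libraries. Barcodes alone could not tell all reads at these positions apart. Of 15739 transcripts, 15375 were given a symbol from RefSeq tables. Sequences came from GRCh37 and GENCODE 44. The calculation was tested on simulated data. The software was Python 3.11.15 with scipy 1.17.1, numpy 2.4.6, pandas 2.3.3 and, for plots, matplotlib 3.10.9.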

Additional observations from a re-analysis of the deposited data

How the results depend on the processing

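The starved over unstressed fold of 3.65 stayed above 1 under all 11 alternatives. All of them reuse the 2 libraries on which BCYRN1 was chosen, so they describe the size of the fold and lend it no support. It moved to 1.62 with U and G only in both numerator and denominator, 4.56 when divided by the median fold of transcripts, 3.95 without the position with the most stops, 1.66 with noncoding transcripts as the denominator and 3.78 with unique windows. Of the alternatives chosen after seeing the data, A and C only in both gave 4.30, U and G stops over all listed stops 3.03, and division by the median of short transcripts 2.09. In vitro, the K+ over Li+ fold of 1.07 moved to 1.11 with U and G only in both, 1.19 over the median of transcripts, 1.01 with totals that include counts under the listing limit, and 1.05 over the median of short transcripts (added after seeing the data). Without DMS, the fold of 1.04 moved to 1.02 over the median of transcripts and was 0.965 with the 2 libraries exchanged as their file names read. The difference at A or C, 3.53 percentage points, was 5.42 without the position with the most stops. That of the A-rich part, 27.9 points, was 26.1 without that position and 23.0 with 3 taken off for each other base. The cause was not tested, apart from what each alternative leaves out. No paired analysis was possible because each condition had 1 library and no replicate numbers pair them. The listing limit of 3 stops leaves counts of up to 2 unseen at any position called empty.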
